A study of Mus musculus with 14 samples.

Results

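Transcript levels of 10 genes of the NRF2 antioxidant program are described here in mouse leukemic stem cells (LSCs). They are Nfe2l2, which encodes the transcription factor NRF2 itself, and 9 of its known target genes: Hmox1, Nqo1, Slc7a11, Gclc, Gclm, Gsr, Txnrd1, Srxn1 and Prdx1. The genes were picked by name, as members of this pathway, out of 24463 genes in the files. The choice sets no threshold on level or change, and all 10 genes passed the filter on low values in every fit. The members and the further gene lists below were chosen with earlier results of these data known. Their counts therefore describe these libraries and are no test of the set. The study asked how loss of Tcf1 and Lef1, and treatment with E-type prostaglandins, alters the LSC transcriptome. Lineage-negative bone marrow cells were transduced at a 24 h interval with a retrovirus carrying p210 BCR-ABL, the kinase fusion of chronic myeloid leukemia. LSCs were sorted at 48 h as lineage-negative cells positive for c-Kit, Sca1 and GFP.

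All 14 libraries thus carried BCR-ABL. Control LSCs, with Tcf1 and Lef1 intact, received 20 µM prostaglandin E1 (PGE1, n = 3), 20 µM prostaglandin E2 (PGE2, n = 2) or the vehicle (DMSO, n = 3), each for 6 h. Untreated LSCs came from Tcf1/Lef1-deficient marrow (dKO, n = 3) or from wild-type marrow (WT, n = 3). The labels give neither the Cre line nor the age of the animals. Whether each replicate is its own animal or culture is not labelled, so p-values measure the spread between these libraries, which may be technical.

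NRF2 is held at a low level in resting cells by KEAP1, an adaptor that hands it to a CUL3 ubiquitin ligase. Reactive (electrophilic) molecules modify cysteines of KEAP1, whereupon NRF2 builds up, pairs with a small MAF protein and binds antioxidant response elements (AREs) in its target genes. BACH1, a heme-sensing repressor, competes at many of the same elements, and Hmox1 is its best-known target. Because NRF2 is governed mainly through protein turnover, the Nfe2l2 transcript need not follow its activity.

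The sequences upstream of these genes show what the members share in their DNA. RefSeq promoter windows (GRCm38.p6, from 250 bases before to 50 bases after each transcript start, 300 bases in all) were at hand for 7 of the 10 members, with 9 windows because Txnrd1 has several starts. Hmox1, Gclc and Gsr are not in that table. The ARE core was searched on both strands as TGACNNNGC or TGAGNNNGC. It was found in 6 of the 9 windows, belonging to 6 of the 7 genes, against 27.8% of all 32851 windows in the table. Nqo1 had no match in its window, which says only that these letters are not there. The windows of Srxn1 (chr2:152105274-152105573, plus strand), Prdx1 (chr4:116685349-116685648, plus strand) and Slc7a11 (chr3:50443564-50443863, minus strand) are printed 5′ to 3′ along the gene. They are shown since Srxn1 had the most matches and Slc7a11 is the member whose pattern was nearest to Srxn1. Capitals mark an ARE core, or its reverse complement where the match lies on the opposite strand.
Srxn1: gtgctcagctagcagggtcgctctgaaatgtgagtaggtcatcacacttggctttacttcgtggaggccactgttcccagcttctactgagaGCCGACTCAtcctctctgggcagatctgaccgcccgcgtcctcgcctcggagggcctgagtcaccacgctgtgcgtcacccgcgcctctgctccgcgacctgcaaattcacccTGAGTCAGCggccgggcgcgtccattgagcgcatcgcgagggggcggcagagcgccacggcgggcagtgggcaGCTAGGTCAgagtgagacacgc
Prdx1: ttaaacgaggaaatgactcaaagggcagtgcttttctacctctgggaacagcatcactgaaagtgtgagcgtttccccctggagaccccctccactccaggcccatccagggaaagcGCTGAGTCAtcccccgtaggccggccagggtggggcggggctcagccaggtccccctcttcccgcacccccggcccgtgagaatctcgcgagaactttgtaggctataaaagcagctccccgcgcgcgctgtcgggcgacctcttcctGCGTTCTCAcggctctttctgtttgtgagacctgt
Slc7a11: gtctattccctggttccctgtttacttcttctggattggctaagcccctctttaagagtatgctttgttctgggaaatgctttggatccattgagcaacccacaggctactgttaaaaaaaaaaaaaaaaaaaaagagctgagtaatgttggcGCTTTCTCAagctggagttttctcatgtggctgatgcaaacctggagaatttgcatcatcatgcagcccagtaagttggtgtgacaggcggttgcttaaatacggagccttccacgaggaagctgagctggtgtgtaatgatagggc

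The Srxn1 window held 3 cores, which start 158 and 45 bases before and 28 bases after the first transcribed base. The one at 45 bases overlaps an AP-1 site (TGACTCA, found in 5.2% of all windows). In the Prdx1 window, the core at 133 bases before the start likewise overlaps an AP-1 site. The single core of Slc7a11 starts 97 bases before the start. Its window also holds TGATGNAA, an amino acid response element, on each strand, a motif found in 3.97% of all windows. A match is a run of letters and not a measured binding site.

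Treated libraries held 19.0 to 22.7 M reads and untreated ones 31.3 to 33.8 M. Library to library variance among well-covered genes was 12.4 to 48.2 times counting noise within PGE1, highest for pairs with replicate 2, 1.98 times within PGE2 and 1.86 to 17.4 times within DMSO, highest for pairs with replicate 1. Within dKO it was 5.33 to 15.9 times, and within WT 2.13 to 3.02 times. Tcf7, which encodes Tcf1, averaged 0.0996 ± 0.0674 FPKM in dKO and 1.31 ± 0.167 in WT cells (SD, n = 3 each; two-sided exact permutation p = 0.1, the smallest this design allows). Lef1, low in both groups, averaged 0.151 ± 0.0411 FPKM in dKO (54 reads over the group) and 0.283 ± 0.0524 in WT (101 reads; two-sided exact permutation p = 0.1, n = 3 each), so more of its signal than of Tcf7's remained in dKO. Which exons were deleted is not labelled, so remaining reads do not measure the deletion. The genotype field contradicts the title for 1 dKO and 1 DMSO library, and Tcf7 levels go with the titles. Ddx3y, a Y-linked gene, was listed at 0 in every dKO library and at 7.72 to 8.94 FPKM in WT. Xist, expressed from the inactive X, was detected in both, at 12.4 to 27.6 FPKM in dKO and 9.81 to 10.6 FPKM in WT. The sex makeup of the samples and the genotype cannot be told apart. Xist also differed among treated groups, at 3.54 to 8.14 FPKM with PGE1, 9.05 to 11.2 with DMSO and 14.6 to 14.9 with PGE2. Ddx3y was at 6.49 to 9.64 FPKM in the treated libraries. Whether sex makeup differed between the treated groups was not tested. The list of sort and progenitor markers held Kit, Ly6a, Cd34 and Ptprc, the last a general leukocyte gene that was not sorted on. All were detected in every library. Ly6a, the Sca1 gene, was at 2.86 to 3.53 FPKM in dKO, against 10.4 to 12.6 in WT. FPKM, the unit throughout, scales fragments to gene length and library depth. Since these are bulk samples, fewer cells of a type and less RNA per cell cannot be told apart.

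PGE1 raised most of the NRF2 targets. Relative to DMSO, 9 of the 10 genes were higher after PGE1 and none was lower. Over all genes tested, 49.1% were called at an adjusted p below 0.05 in limma, 23.6% as higher and 25.5% as lower. The PGE1 libraries all lay above the DMSO libraries in 9 of the 10 genes and in 27.9% of all genes, and all below them in none of the 10 and in 29.2% of all genes. The median log2 difference was 0.82 for the 10 genes and 0.01 for all 11242 genes tested. Heme, quinone and cystine genes moved furthest, whereas the regulator Nfe2l2 moved little and Gsr was not called.

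Hmox1 encodes heme oxygenase, which breaks heme down to biliverdin, iron and carbon monoxide. It measured 398, 539.8 and 394 FPKM in the PGE1 libraries, against 182, 199 and 197 FPKM in the DMSO libraries. The lowest PGE1 library lay far above the highest DMSO library, and replicate 2 stood above the other PGE1 libraries. The means were 444 ± 83.1 FPKM with PGE1 and 193 ± 9.36 with DMSO (SD, n = 3 each), a 2.30-fold difference (log2 1.18, SE 0.13, limma adjusted p = 0.000105). Nqo1, a quinone reductase that is the standard readout of NRF2, had 41.4, 57.5 and 69.8 FPKM with PGE1, against 18.4, 19.7 and 21.0 with DMSO. The PGE1 libraries were spread widely but did not reach down to the DMSO libraries. Nqo1 was 2.86-fold higher, the largest fold of the 10 genes (log2 1.44, SE 0.16, limma adjusted p = 0.00013).

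Transcripts for cystine import and glutathione synthesis rose. Slc7a11, the cystine importer subunit of system xc-, had 44.4, 37.6 and 43 FPKM with PGE1, against 13.5, 18.8 and 20.5 with DMSO, a 2.37-fold difference (limma adjusted p = 0.000141). Gclc, the catalytic subunit of glutamate-cysteine ligase, had 42.2, 42.1 and 42.3 FPKM with PGE1, against 19.6, 22.1 and 23.5 with DMSO. Its PGE1 libraries were almost identical, and the difference was 1.94-fold (limma adjusted p = 1.87e-05). Gclm, the modifier subunit of that ligase, had 143, 178 and 157 FPKM with PGE1, against 87.2, 93.9 and 95.4 with DMSO (1.73-fold, limma adjusted p = 0.000162). In all of these genes the groups were apart. Gsr, which recycles oxidized glutathione, had 121, 127 and 102 FPKM with PGE1, against 128, 123 and 122 with DMSO, and the groups overlapped. Its log2 difference was -0.10 with a 95% interval of -0.29 to 0.10 (limma adjusted p = 0.37).

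In the thioredoxin and peroxiredoxin system, Srxn1, which repairs overoxidized peroxiredoxins, had 72.5, 93.7 and 75.5 FPKM with PGE1, against 41.4, 46.4 and 45.6 with DMSO (1.81-fold, limma adjusted p = 0.000184). Prdx1, a cytosolic peroxide-reducing enzyme, had 187, 273 and 187 FPKM with PGE1, against 125, 119 and 118 with DMSO (1.79-fold, limma adjusted p = 0.00132). Replicate 2 gave the high PGE1 value of both genes, and the other PGE1 libraries still exceeded every DMSO library. Txnrd1, the cytosolic thioredoxin reductase, had 116, 126 and 122 FPKM with PGE1, against 91.9, 104 and 106 with DMSO, a smaller difference of 1.21-fold (limma adjusted p = 0.0142). Nfe2l2 had 37.5, 37.5 and 37.2 FPKM with PGE1, against 32.7, 32.5 and 31.9 with DMSO. The libraries of each group lay close together, and the 1.16-fold difference passed the test (log2 0.20, SE 0.055, limma adjusted p = 0.0142). Without DMSO replicate 3 it did not (limma adjusted p = 0.0553). The same 9 genes were called without PGE1 replicate 2. Reads of Gclm are uncertain because its exons overlap Gm17494 on the other strand and Gm6061 on its own in GENCODE vM21, and the sources used here do not say how such reads were counted.

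**Figure D1:**
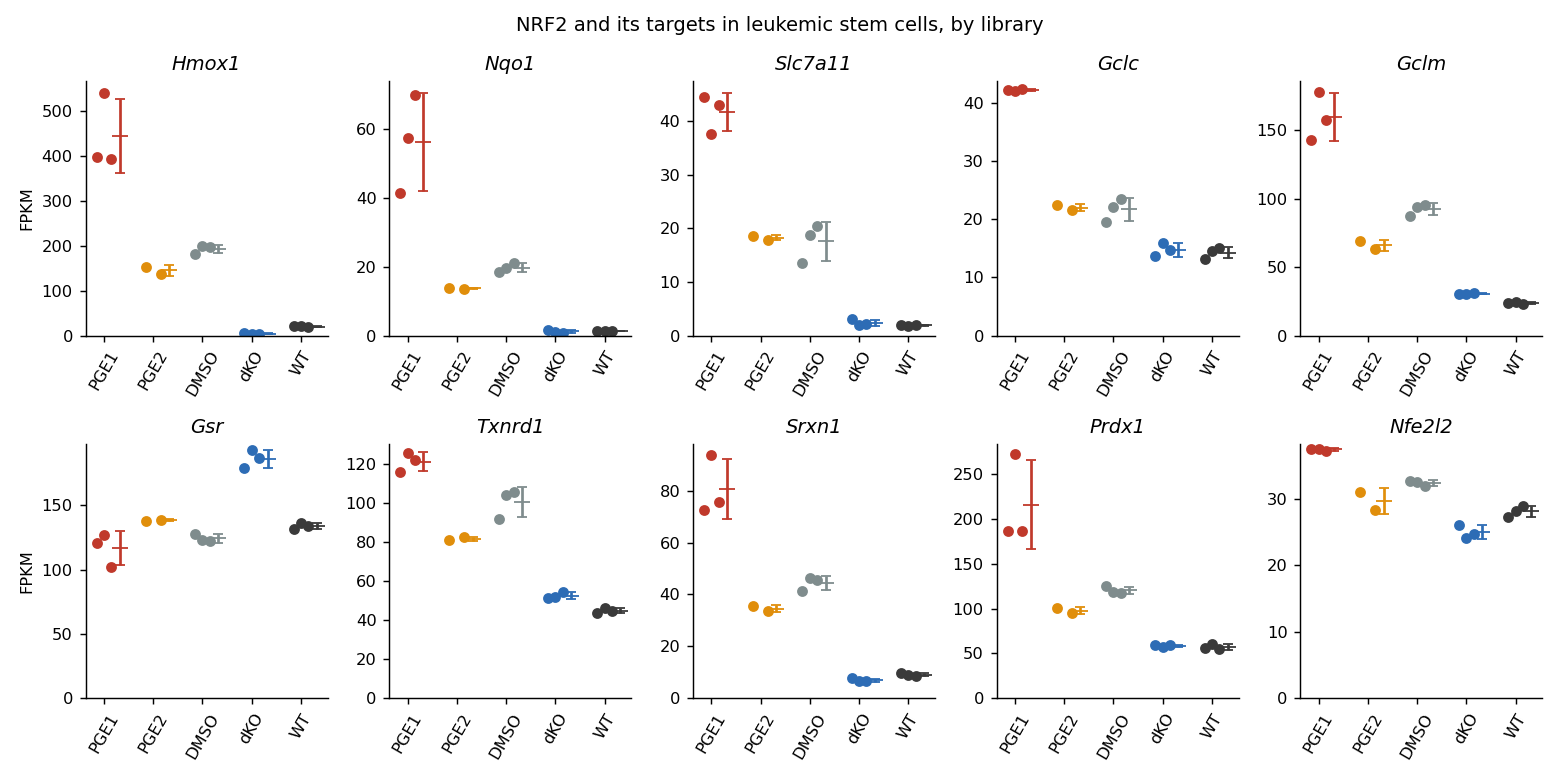
FPKM (linear axes from 0, 1 panel per gene) of the 10 genes in each library of the PGE1, PGE2, DMSO, dKO and WT groups. Points are libraries and the offset bar is the mean ± SD. The PGE1 libraries are the highest for every gene except Gsr, and Hmox1 in dKO lies between 2.80 and 5.01 FPKM.

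PGE2 at the same dose and time gave no such rise. Against the same 3 DMSO libraries that served for PGE1, 1 of the 10 genes was called, Gclm, and it was lower. Over all genes tested, 5.57% were called, 4.57% as lower and 0.996% as higher. The median log2 difference was -0.30 for the 10 genes and 0.00 for all 11242 genes tested.

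Gclm measured 68.8 and 63.0 FPKM with PGE2, against 87.2, 93.9 and 95.4 with DMSO (log2 -0.48, SE 0.10, limma adjusted p = 0.0285). The groups did not overlap. The call was lost when any 1 of DMSO replicate 2, DMSO replicate 3 or either PGE2 library was left out (limma adjusted p = 0.117 to 0.285), with no minimum level (limma adjusted p = 0.0544), and with a replicate block (limma adjusted p = 0.092). Hmox1 had 153 and 137 FPKM with PGE2, against 182, 199 and 197 with DMSO (log2 -0.41, 95% interval -0.73 to -0.09, limma adjusted p = 0.138). Nqo1 had 13.9 and 13.6 FPKM with PGE2, against 18.4, 19.7 and 21.0 with DMSO (log2 -0.49, 95% interval -0.89 to -0.08, limma adjusted p = 0.163). Both PGE2 libraries lay under all DMSO libraries for these genes, although neither gene passed the test. The same held for Txnrd1, with 80.9 and 82.5 FPKM, Srxn1, with 35.4 and 33.5, Prdx1, with 100.4 and 94.8, and Nfe2l2, with 31.0 and 28.3; their log2 differences from DMSO were -0.29, -0.36, -0.30 and -0.12 (limma adjusted p = 0.0752 to 0.306). With Gclm that makes 7 genes, beside 24.1% of all genes with both PGE2 libraries under every DMSO library. Slc7a11, with 18.6 and 17.9 FPKM, and Gclc, with 22.4 and 21.6, overlapped the DMSO libraries. Gsr was the member with both PGE2 libraries, 138 and 139 FPKM, above all DMSO libraries, as were 25.0% of all genes (log2 0.15, limma adjusted p = 0.405).

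The number of calls in this comparison changed with the libraries in the fit. Fitted on the PGE2 and DMSO libraries alone, 6 members were lower (Hmox1, Nqo1, Gclm, Txnrd1, Srxn1 and Prdx1). In that fit 1729 of all genes were called in either direction, against 626. Without PGE1 replicate 2, which belongs to neither group, 5 members were lower and 1218 of all genes were called in either direction. The share of all genes called lower in these fits is not given here, so these member counts have no like share beside them.

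PGE1 and PGE2 differ by a double bond in the carboxyl side chain, which PGE2 has and PGE1 lacks. Set against each other directly at 20 µM and 6 h, PGE1 gave higher levels of 9 of the 10 genes and lower levels of none. Over all genes tested, 53.9% were called, 27.2% as higher and 26.7% as lower. The median log2 difference was 1.13 for the 10 genes and 0.02 for all 11242 genes. All PGE1 libraries lay above both PGE2 libraries in 9 of the 10 genes and in 36.2% of all genes, and below them in Gsr and in 33.7% of all genes.

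Nqo1 averaged 56.2 ± 14.3 FPKM with PGE1 (SD, n = 3) and 13.7 ± 0.154 with PGE2 (SD, n = 2), a 4.09-fold difference (log2 1.93, SE 0.18, limma adjusted p = 5.01e-05). Hmox1 averaged 444 ± 83.1 FPKM with PGE1 and 145 ± 11.2 with PGE2, 3.07-fold (log2 1.60, SE 0.14, limma adjusted p = 4.09e-05). The quinone and heme enzymes thus separated the compounds furthest. Gclm was 2.41-fold, Srxn1 2.34-fold, Slc7a11 2.28-fold, Prdx1 2.21-fold and Gclc 1.92-fold higher with PGE1 (limma adjusted p = 2.71e-05 to 0.000384). Txnrd1 was 1.48-fold and Nfe2l2 1.26-fold higher (limma adjusted p = 0.000494 and 0.00206). Gsr was not called, at log2 -0.25 with a 95% interval of -0.47 to -0.03 (limma adjusted p = 0.0512). It was called lower without PGE1 replicate 2 (limma adjusted p = 0.0112), and with limma-voom, a minimum of 5 FPKM, quantile normalization or median-of-ratios scaling (limma adjusted p = 0.0251 to 0.0486). In all, 3 pairs of treatments were compared in 1 fit, with p-values adjusted over all genes within each pair.

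**Figure D2:**
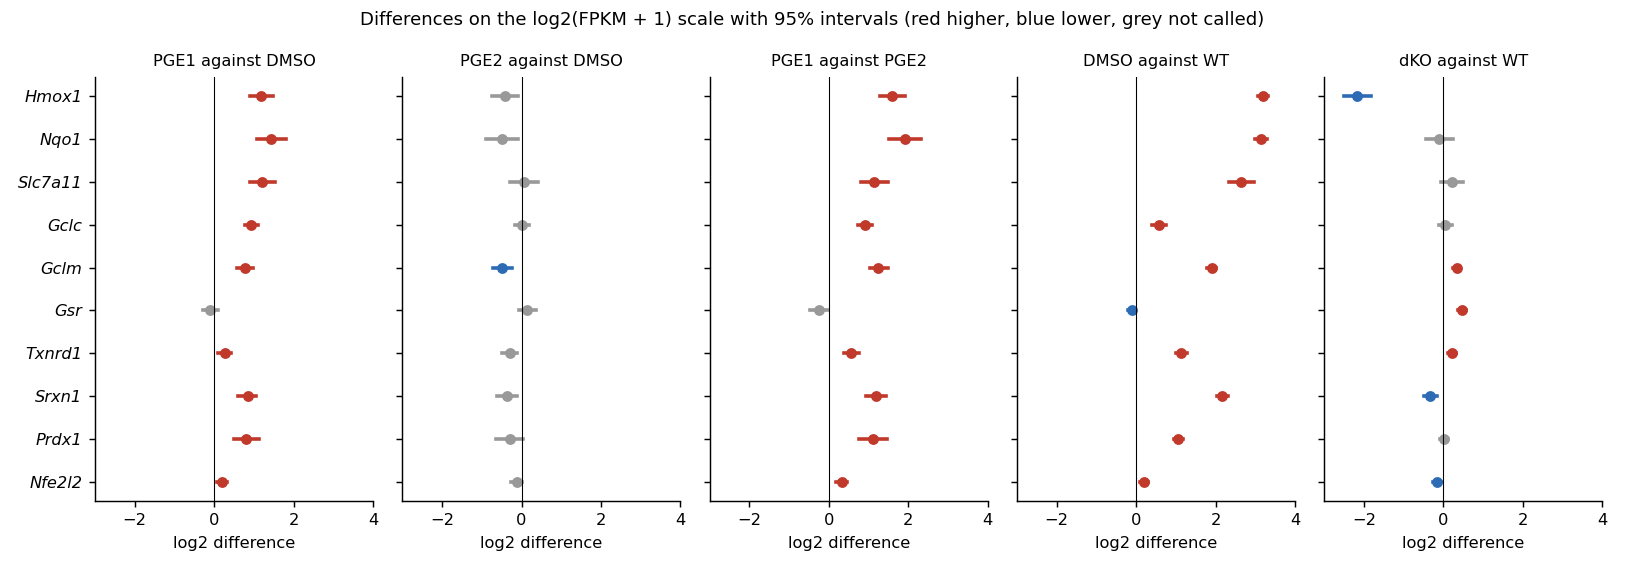
Log2 differences of the 10 genes (x axis, log2(FPKM + 1) scale) in the 5 comparisons, with 95% intervals from limma as bars. Nqo1 has the largest difference between PGE1 and PGE2, at 1.93, and Gsr is the gene whose interval includes 0 for PGE1 against DMSO.

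Further genes of the pathway were counted in the same fits. Beside these list counts, 23.6% of all genes tested were higher and 25.5% lower with PGE1 than with DMSO. The shares were 0.996% and 4.57% for PGE2 against DMSO, and 27.2% and 26.7% for PGE1 against PGE2. Of 34 further NRF2 targets, 30 passed the filter in the treated cells. With PGE1 17 were higher than with DMSO and 0 lower (median log2 0.37). Osgin1, an oxidative stress growth inhibitor, averaged 20.4 FPKM with PGE1 and 8.85 with DMSO (limma adjusted p = 3.94e-05). Ptgr1, which reduces prostaglandin metabolites and reactive carbonyls, averaged 122 FPKM with PGE1 and 56.9 with DMSO (limma adjusted p = 0.000203). Abcc1, an exporter of glutathione conjugates, averaged 59.2 and 34.9 FPKM, and Gstm1, a glutathione transferase, 148 and 75.8 FPKM, with PGE1 and with DMSO. The iron and heme genes of this list counted 5 higher and 0 lower of 7. With PGE2, 0 of the 30 were called in limma in either direction (median log2 -0.11); a fit with limma-voom on recovered reads called 1. PGE1 against PGE2 gave 19 higher and 1 lower of 30. Osgin1 had the smallest adjusted p, with 20.4 FPKM with PGE1 and 9.02 with PGE2 (2.26-fold, limma adjusted p = 7.43e-05). Gsta4, a glutathione transferase, averaged 10.3 FPKM with PGE1 and 1.91 with PGE2, a larger 5.38-fold difference (limma adjusted p = 0.000157).

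Among 15 genes that control NRF2 or share its partners, 13 passed the filter. After PGE1, 7 were higher and 1 lower than with DMSO. Nfe2, an NRF2 relative that also pairs with small MAFs, averaged 81.1 FPKM with PGE1 and 50.7 with DMSO (limma adjusted p = 0.000511). Sqstm1, the p62 adaptor that draws KEAP1 into autophagy, averaged 567 FPKM with PGE1 and 331 with DMSO (limma adjusted p = 0.00054). Bach1, the repressor, averaged 22.8 and 13.8 FPKM with PGE1 and with DMSO (limma adjusted p = 0.00319), and thus rose beside its target Hmox1. Mafk, a small MAF partner, averaged 23.3 and 18.7 FPKM in the same order (limma adjusted p = 0.00334). After PGE2, 0 were higher and 2 lower than with DMSO. These were Sqstm1, with 169 FPKM with PGE2 and 331 with DMSO (limma adjusted p = 0.00299), and Mafk, with 14.9 and 18.7 FPKM (limma adjusted p = 0.0339). Sqstm1 was not called without PGE2 replicate 2 (limma adjusted p = 0.0606), and Mafk not without either PGE2 library or without DMSO replicate 2 or 3 (limma adjusted p = 0.14 to 0.265).

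Antioxidant enzymes outside the core program moved in both directions. Of 18, all of which passed the filter, PGE1 gave 5 higher and 10 lower than DMSO (median log2 -0.32). Cat, catalase, averaged 85.7 FPKM with PGE1 and 50.8 with DMSO (limma adjusted p = 3.42e-05). Prdx6, a peroxiredoxin that also acts on phospholipids, averaged 226 and 120.3 FPKM with PGE1 and with DMSO. Prdx4, the peroxiredoxin of the endoplasmic reticulum, averaged 11.6 FPKM with PGE1 and 21.0 with DMSO (limma adjusted p = 0.000184), and Prdx3, the mitochondrial one, 29.9 and 42.2 FPKM. PGE2 gave 0 higher and 2 lower. Those 2 were Cat, at 39.1 FPKM with PGE2 and 50.8 with DMSO, and Prdx4, at 14.5 and 21.0 FPKM (limma adjusted p = 0.0214 and 0.0315). Leaving out either PGE2 library, or DMSO replicate 2 or 3, ended both calls (limma adjusted p = 0.0679 to 0.271), and leaving out DMSO replicate 1 ended that of Prdx4 (limma adjusted p = 0.0769).

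**Figure D3:**
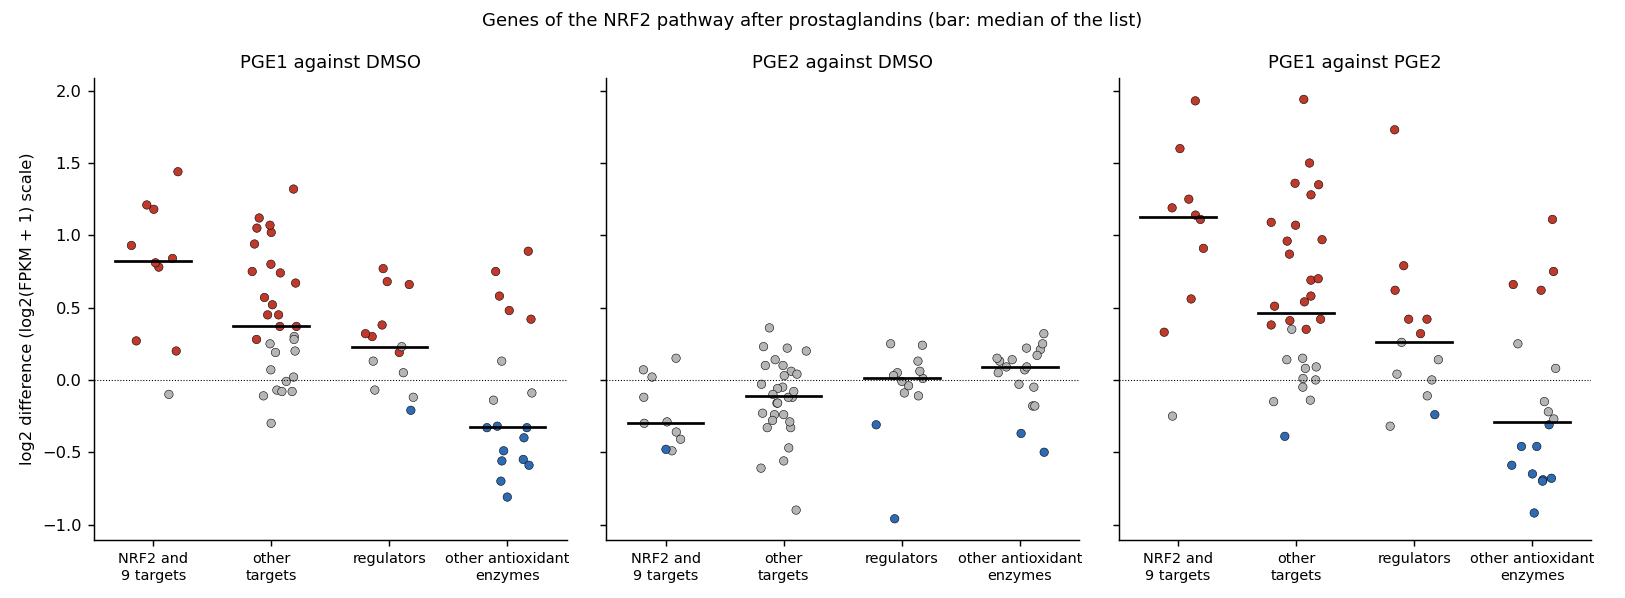
Log2 differences on the log2(FPKM + 1) scale for genes of the pathway lists, 1 point per gene with a bar at the list median, for PGE1 against DMSO, PGE2 against DMSO and PGE1 against PGE2. The 10 genes have medians of 0.82, -0.30 and 1.13, and the other antioxidant enzymes lie below 0 at the median for PGE1 against DMSO, at -0.32.

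Vehicle-treated cells already differed from untreated WT cells in these genes. Compared with WT, DMSO cells had 9 genes higher and 1 lower, while 56.6% of all genes tested were called, 26.0% as higher and 30.7% as lower. The DMSO and WT libraries were apart in all 10 genes, with 9 above, as in 29.3% of all genes, and 1 below, as in 35.0% of all genes. The median log2 difference was 1.52 for the 10 genes and -0.03 for all 11115 genes. Vehicle, the 6 h treatment period, depth and library set change together between these groups and cannot be told apart.

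Hmox1 measured 182, 199 and 197 FPKM in DMSO cells, against 20.6, 20.4 and 19.4 FPKM in WT cells, 9.58-fold (log2 3.20, limma adjusted p = 1.39e-08). It ranked 12 and Nqo1 ranked 13 from the highest log2 difference. Nqo1 had 18.4, 19.7 and 21.0 FPKM in DMSO cells, against 1.36, 1.39 and 1.22 in WT cells (14.9-fold, limma adjusted p = 3.91e-08). The DMSO and WT libraries were far apart for both genes. Slc7a11 was 9.18-fold, Srxn1 4.89-fold, Gclm 3.84-fold, Txnrd1 2.24-fold, Prdx1 2.11-fold and Gclc 1.52-fold higher in DMSO cells (limma adjusted p at most 0.000384). Nfe2l2 differed by 1.15-fold (limma adjusted p = 0.00347), with 32.7, 32.5 and 31.9 FPKM in DMSO cells, against 27.2, 28.2 and 28.9 in WT cells. Gsr was lower in DMSO cells (log2 -0.11, limma adjusted p = 0.049), a call that was lost without any 1 of the libraries except DMSO replicate 1 (limma adjusted p = 0.0948 to 0.155), and with no minimum level, limma-voom or quantile normalization (limma adjusted p = 0.0555 to 0.613).

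Of the further targets, 19 were higher and 4 lower in DMSO cells among 29 tested, and Fth1, the ferritin heavy chain that stores iron, averaged 1406 FPKM in DMSO cells and 373 in WT cells (limma adjusted p = 1.8e-07). Blvrb, a reductase of the heme breakdown path, averaged 42.7 FPKM in DMSO cells and 12.3 in WT cells. Ptgr1 averaged 56.9 and 24.6 FPKM, and Cbr3, a carbonyl reductase, 4.50 and 0.726 FPKM, in DMSO and in WT cells. Cbr3, Gsta4 and Pir, 3 of the genes counted as higher, were under 1 FPKM in WT cells (0.726, 0.577 and 0.334) and passed the filter only through their DMSO level, so that their place in the count is no support for its direction. Of the regulators, 5 were higher and 1 lower among 13, with the smallest adjusted p for Sqstm1, at 331 FPKM in DMSO cells and 69.7 in WT cells (limma adjusted p = 3.91e-08). Of the other antioxidant enzymes, 5 were higher and 9 lower among 18. Beside these list counts, 26.0% of all genes tested were higher and 30.7% lower.

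The members were divided between dKO and WT cells. Hmox1 was strongly lower in dKO cells, Srxn1 and Nfe2l2 slightly lower, and Gsr, Gclm and Txnrd1 higher, which makes 3 lower and 3 higher. Over all 10721 genes tested, 40.9% were called, 22.9% as lower and 18.0% as higher. The same 6 members were those whose dKO and WT libraries did not overlap, beside 29.6% of all genes with dKO below WT and 25.3% with dKO above. The median log2 difference was 0.04 for the 10 genes and -0.01 for all genes. Higher genes made up 44.1% of the calls as deposited. That share was 60.2% under quantile normalization and 56.1% when libraries were scaled by median of ratios.

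Hmox1 measured 5.01, 2.80 and 3.53 FPKM in dKO cells, against 20.6, 20.4 and 19.4 FPKM in WT cells. No dKO library came near the WT libraries. The means were 3.78 ± 1.13 FPKM in dKO and 20.1 ± 0.641 in WT (SD, n = 3 each), and dKO was 5.32-fold lower (log2 -2.17, SE 0.15, limma adjusted p = 3.12e-05). It ranked 54 from the lowest log2 difference. Srxn1 had 7.64, 6.85 and 6.57 FPKM in dKO, against 9.72, 9.07 and 8.50 in WT (log2 -0.33, limma adjusted p = 0.00733). Nfe2l2 had 26.1, 24.1 and 24.7 FPKM in dKO, against 27.2, 28.2 and 28.9 in WT (log2 -0.16, limma adjusted p = 0.0213). Groups stayed apart for both genes, but the Nfe2l2 call was lost under median-of-ratios scaling and without WT replicate 2 or 3 or dKO replicate 2 or 3 (limma adjusted p = 0.0601 to 0.0861).

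Gsr had 179, 193 and 187 FPKM in dKO, against 132, 136 and 134 in WT (1.39-fold, limma adjusted p = 8.69e-05). The member that PGE1 did not raise was thus the most raised in dKO, its highest level in any group. Gclm had 30.4, 30.7 and 31.0 FPKM in dKO, against 24.1, 24.7 and 23.1 in WT (1.28-fold, limma adjusted p = 0.00041). Txnrd1 had 51.2, 51.8 and 54.7 FPKM in dKO, against 43.6, 46.1 and 45.0 in WT (1.17-fold, limma adjusted p = 0.00409). All dKO libraries exceeded all WT libraries for these genes. Nqo1 had 1.75, 0.972 and 0.876 FPKM in dKO, against 1.36, 1.39 and 1.22 in WT (log2 -0.10, 95% interval -0.44 to 0.24, limma adjusted p = 0.609), with 45 to 85 reads in each library of either group. It was called lower without dKO replicate 1, its highest library (limma adjusted p = 0.0297). Slc7a11 had 3.07, 1.94 and 2.21 FPKM in dKO, against 1.95, 1.78 and 2.03 in WT (log2 0.21, 95% interval -0.07 to 0.49), and was called higher under quantile normalization (limma adjusted p = 0.0184). Gclc at log2 0.05 and Prdx1 at log2 0.02 were not called either, with intervals of -0.12 to 0.21 and -0.08 to 0.13. The groups overlapped in all 4 of these genes.

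Beside the list counts given next for dKO against WT, 22.9% of all genes tested were lower and 18.0% higher. Of the 7 iron and heme genes on the list of further targets, 4 were lower and 2 higher in dKO cells. Fth1 averaged 202 FPKM in dKO and 373 in WT (limma adjusted p = 3.97e-06). All further targets together counted 8 higher and 6 lower of 26, among them Ugdh, which makes UDP-glucuronate, at 13.7 FPKM in dKO and 20.9 in WT, and Mgst2, a microsomal glutathione transferase, at 122 and 85.2 FPKM. Of the regulators 4 were higher and 1 lower of 13. Bach1 was the lower one, with 7.61 FPKM in dKO and 10.2 in WT (limma adjusted p = 0.00209). Nfe2 averaged 74.7 FPKM in dKO and 57.5 in WT. Of the other antioxidant enzymes 7 were higher and 2 lower of 18, with Txnrd3, a thioredoxin reductase, at 6.08 FPKM in dKO and 3.21 in WT, and Prdx6 at 122 and 84.4 FPKM.

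Markers of other blood cells also differed between the groups, not always in the direction of the members. Summed levels of 16 monocyte and macrophage markers (of 17 listed) were 117 to 130.5 FPKM in dKO and 829 to 873 in WT. Of 15 tested, 13 were lower in dKO and 0 higher, beside 22.9% and 18.0% of all genes. Cx3cr1, C1qa and Fcgr1 were under 1 FPKM in dKO (0.14, 0.341 and 0.617) and passed the filter only through their WT level. Their place in the count is thus no support for its direction. Lyz2 and Ctss were the highest of the 16 in dKO and in WT, and none of the 16 was at 0 throughout a group. Hmox1 is itself abundant in macrophages, and the part of these markers in its dKO difference was not tested. The same sum was 818 to 1056 FPKM with PGE1, 1115 to 1127 with PGE2 and 841 to 994 with DMSO. With PGE1, 12 of 15 markers were lower and 2 higher than with DMSO, beside 25.5% and 23.6% of all genes. There Hmox1 was higher while most of these markers were lower. Cd14, a lipopolysaccharide co-receptor, was one of those that were higher, with 297 FPKM with PGE1 and 46.6 with DMSO (limma adjusted p = 4.55e-07), and with Lyz2 it made up most of the PGE1 sum. Vcam1, at 0.581 FPKM with PGE1, passed the filter only through the DMSO and PGE2 libraries, so its place in the PGE1 count is no support. In DMSO cells, 5 of 15 markers were higher and 6 lower than in WT cells, beside 26.0% and 30.7% of all genes.

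Neutrophil markers, 14 in all, summed to 1940.3 to 2975 FPKM with PGE1, 7835 to 7939.7 with PGE2 and 5358 to 6372 with DMSO. With PGE1, 11 of 13 tested were lower and 0 higher than with DMSO, beside 25.5% and 23.6% of all genes. Mmp9, at 0.178 FPKM with PGE1, passed the filter only through the DMSO and PGE2 libraries, so its place in the count is no support. The highest of the 14 markers were S100a8 and S100a9 with PGE1, and Mpo and Elane in the other groups. In dKO the sum was 11077 to 11341 FPKM, against 8211 to 8569 in WT, but the list was split. Of 12 tested, 5 were higher and 5 lower in dKO (median log2 -0.04), beside 18.0% and 22.9% of all genes. Mpo, a primary granule peroxidase, averaged 3150.4 FPKM in dKO and 2499 in WT, whereas Camp, a secondary granule peptide, averaged 8.27 in dKO and 49.2 in WT. Mast cell and basophil markers, 9 in all, summed to 339 to 451 FPKM with PGE1, 252 to 253 with PGE2 and 347 to 362 with DMSO, and to 89.0 to 101 in dKO, against 177 to 185 in WT. Mcpt8 was among the highest in every group, beside Gzmb in the treated cells and Hdc in the untreated ones. Of these 9 markers, 5 were higher and 2 lower with PGE1 than with DMSO, beside 23.6% and 25.5% of all genes. Erythroid markers, 12 in all, summed to 121 to 129 FPKM with PGE1, 116 to 118 with PGE2, 110.2 to 110.3 with DMSO, 156 to 161 in dKO and 127 to 133 in WT, with Tfrc and Car2 the highest. These sums cover opposite changes. With PGE1, 4 of 7 tested were higher and 3 lower than with DMSO, beside 23.6% and 25.5% of all genes. Tfrc averaged 23.2 FPKM with PGE1 and 61.2 with DMSO, and Car2 65.2 and 17.2 FPKM. Of 10 lymphoid markers, Nkg7, a granule protein of cytotoxic cells, made up most of the sum in every group, and it averaged 10.4 FPKM with PGE1, 58.1 with PGE2, 42.2 with DMSO, 87.3 in dKO and 67.3 in WT. Each other lymphoid marker, Cd79a being the next, averaged under 2 FPKM in every group. The lymphoid sum was 9.52 to 18.3 FPKM with PGE1, 59.2 to 60 with PGE2, 41.2 to 48.3 with DMSO, 89.8 to 92.0 in dKO and 69.2 to 71.5 in WT. Cd3e, Cd3g and Cd8a were listed at 0 in dKO, and Cd3g in PGE2. The sort and progenitor markers summed to 115 to 137 FPKM with PGE1, 114 to 116 with PGE2 and 116 to 118 with DMSO. Their sum was 80.2 to 84.8 FPKM in dKO and 131 to 134 in WT. All 4 were lower in dKO than in WT, beside 22.9% of all genes. With PGE1, 2 of the 4 were higher and 1 lower than with DMSO, beside 23.6% and 25.5% of all genes. The PGE1 sum covers opposite changes. Cd34 averaged 19.4 FPKM with PGE1 and 40.9 with DMSO, and Kit 42.2 and 26.1 FPKM. Ptprc and Kit were the highest of the 4 with PGE1, Cd34 and Ptprc with PGE2 and with DMSO, and Cd34 and Kit in dKO and in WT. The part of these markers in the NRF2 results was not tested.

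**Figure D4:**
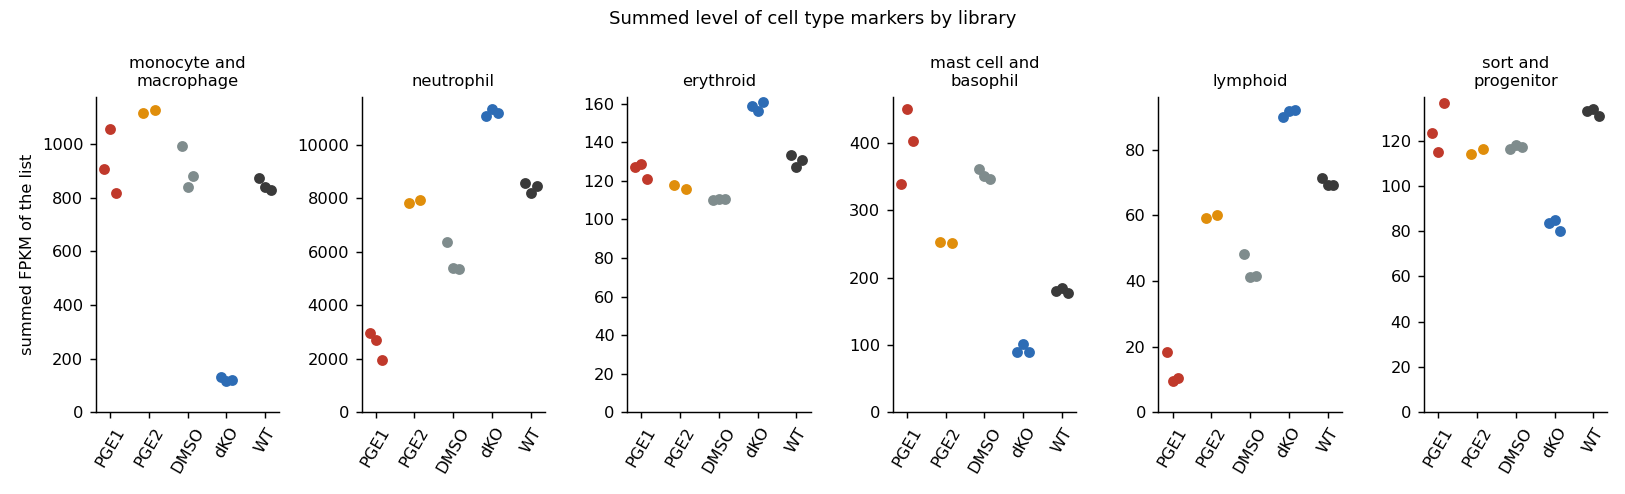
Summed FPKM (y axis) of the markers of other blood cells and of the sort and progenitor markers, 1 point per library, by group. The monocyte and macrophage sum is lowest in dKO, at 117 to 130.5, and the neutrophil sum is lowest with PGE1.

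Across the 5 groups, the members fell into a few shapes. Hmox1, Nqo1, Gclm, Txnrd1, Srxn1, Prdx1 and Nfe2l2 ran PGE1, DMSO, PGE2 from high to low, with the untreated groups under them. Slc7a11 and Gclc also peaked with PGE1, but their PGE2 and DMSO libraries overlapped. Gsr alone among the members ran the other way, from dKO through PGE2 and WT to the overlapping DMSO and PGE1 libraries. In the Nfe2l2 order, PGE2 and WT overlapped. WT and dKO overlapped in Nqo1, Gclc, Slc7a11 and Prdx1.

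Likeness of pattern was measured as the root mean square difference of gene-centred log2(FPKM + 1) over the 14 libraries, among the 7755 genes averaging 5 FPKM or more. Srxn1 was the nearest of all these genes to Slc7a11, at 0.36, and Nqo1 stood at 0.43 from Slc7a11. Slc7a11 in turn ranked 12 in nearness to Srxn1, whose nearest gene stood at 0.18. Among all these genes, the rank of the nearest fellow member ran from 1 for Slc7a11 to 5007 for Nfe2l2 and 5514 for Gsr. The nearest genes to Nfe2l2 were Gba2, Dnajc14 and Clcn4, at 0.05 each, which like it vary little. Gba2 averaged 9.85 ± 0.282 FPKM with PGE1, 7.08 ± 0.636 with PGE2, 7.77 ± 0.341 with DMSO, 5.97 ± 0.255 in dKO and 7.07 ± 0.129 in WT (SD). The nearest genes to Hmox1 were Clec4d, a C-type lectin of myeloid cells, at 0.54, Procr, the endothelial protein C receptor, at 0.61, and the long noncoding RNA Neat1, at 0.75. Clec4d averaged 242 ± 45.7 FPKM with PGE1, 76.0 ± 3.30 with PGE2, 90.9 ± 2.53 with DMSO, 4.19 ± 0.615 in dKO and 21.1 ± 0.509 in WT (SD). Procr averaged 58.8 ± 9.18 FPKM with PGE1, 13.2 ± 1.56 with PGE2, 21.8 ± 0.824 with DMSO, 0.345 ± 0.156 in dKO and 1.01 ± 0.110 in WT (SD).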

How the data were processed

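RNA of sorted mouse LSCs was measured in 14 libraries. The submitters' processing notes name CASAVA 1.8, TopHat, Cufflinks and the mouse build mm9; the sources used here state neither strand handling, annotation nor the counting of shared reads. The deposited FPKM values were used as the authors made them, 1 table per library with 24463 genes, of which 5406 were at 0 throughout. In all 19057 other genes, FPKM were whole multiples of 1 read's worth (100% within 0.0001 read), which gave the read totals. Groups came from the sample titles.

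Two-sided moderated tests were run with limma 3.58.1 (R 4.3.3; lmFit, eBayes with trend) on log2(FPKM + 1). Genes averaging under 1 FPKM across a fit's libraries were left out. P-values were adjusted by Benjamini-Hochberg over all genes tested (threshold 0.05). The 8 treated libraries were 1 fit, dKO with WT another, and DMSO with WT a last one. Adding 1 shrinks log2 differences of weakly expressed genes; folds are ratios of group means of FPKM. The code was tested on simulated data in which every library had the same spread. That test therefore does not cover the unequal spread of the groups seen here. Count models were not the main test because the values are FPKM; limma-voom on the recovered reads was added after seeing the data.

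The members and lists were chosen with earlier results of these data known. All 10 members are named; from each pathway list up to 4 genes per comparison with the smallest adjusted p; from the marker lists the 2 highest members and those at 0; for Nfe2l2 and Hmox1 the 3 nearest patterns. Camp, Ly6a in dKO and WT, and Gsta4 and Pir against WT were named after their values were seen. Alternatives were another pseudocount (0.1), no minimum or a minimum of 5 FPKM, quantile normalization, median-of-ratios scaling, a replicate block, fits of only the groups compared, and each library left out. Promoter windows are RefSeq's (GRCm38.p6), whose build differs from the authors'; matching was by symbol.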

Additional observations from a re-analysis of the deposited data

How the results depend on the processing

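Of the member differences under alternatives, 686 kept direction and side of the threshold, 21 lost a call, 21 gained one and 10 changed sign, each from a value that was not called. For dKO against WT these were Nqo1 (0.16 with quantile normalization; -0.27 to 0.0033 with 1 library left out), Gclc (-0.011 to 0.10 with 1 library left out, and -0.0063 without WT replicate 1) and Prdx1 (-0.055 with quantile normalization and -9.4e-05 with limma-voom; -0.006 to 0.067 with 1 library left out). For PGE2 against DMSO they were Gclc (-0.051 to 0.075 with 1 library left out, and -0.0038 without PGE2 replicate 1) and Slc7a11 (-0.10 to 0.18 with 1 library left out). Member counts for PGE1 against DMSO, PGE1 against PGE2, DMSO against WT and dKO against WT stayed within 1.5 times of the main count under every alternative run. For PGE2 against DMSO the 1 member called became 0 with no minimum, 3 with quantile normalization, 2 with limma-voom on recovered reads and 6 with only the groups compared, and ranged from 0 to 5 with 1 library left out. All genes called there, 626, became 1729 with only the groups compared and ranged from 125 to 1218 with 1 library left out. The cause was not tested.

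Same-numbered libraries deviated with correlations of 0.06, 0.12 and -0.02 for dKO against WT, -0.19, -0.38 and 0.38 for PGE1 against DMSO, -0.12 and -0.06 for PGE2 against DMSO, 0.00 and 0.07 for PGE1 against PGE2, and -0.01, -0.04 and 0.04 for DMSO against WT. Replicate 3 of PGE1 and DMSO did deviate together, but in no comparison were all pairs over 0.1, and the labels name no shared animal or day, so the numbers were not taken as pairing. Stronger correlations tied differently numbered libraries. DMSO replicate 1 stood at 0.53 with PGE1 replicate 2 and at -0.5 with PGE1 replicate 3, and the cause was not tested. With a replicate block, PGE2 against DMSO gave 0 members and 269 genes called.

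PGE2 has 2 libraries, and leaving out either leaves 1 that is assumed to vary like the other groups. In WT and dKO, Nqo1 rests on 45 to 85 reads a library, which limits what a small difference there can show. Count-model tests on the recovered reads with negative binomial tools were not run.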
